A study of Homo sapiens with 12 samples.

Results

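The control cells of 2 experiments on IMR5, an established human neuroblastoma cell line with amplification of MYCN, were compared with each other. One control was cells nucleofected with a negative control siRNA, from which RNA was taken after 72 h. The other was cells grown in medium with DMSO, the solvent of selinexor, for a time that the labels do not give. Each group had 3 libraries of strand-specific total RNA, so the comparison used 6 of the 12 libraries of the series. The other 6 came from cells treated with 100 nM selinexor, which blocks the export receptor XPO1, for 24 h, or nucleofected with a single siRNA against XPO1 for 72 h. Libraries were chosen by group alone: the control siRNA columns of the knockdown table and the DMSO columns of the selinexor table, joined on gene symbol. The authors normalized these tables separately, so each library was first rescaled to the same total over the 18987 genes present in both. Values below are these rescaled read counts, in libraries of 39.4 M each.

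Nucleofection drives nucleic acid into the cell and its nucleus with an electric pulse in a special solution, and a control siRNA enters the same RNA-induced silencing complex as one against a gene. Cells put through it are detached, pulsed and replated, whereas cells with DMSO only receive a small amount of solvent. Neuroblastoma cells derive from the sympathetic lineage of the neural crest, and express its transcription factors, the enzymes of noradrenaline synthesis and many neuronal genes. They can move towards a more neuronal or a more mesenchymal state in culture, and BMP and neurotrophin signals are known to act on that state.

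The deposited values corresponded to an estimated 39.5 to 40.9 M reads per DMSO library and 40.6 to 54.0 M per control siRNA library. Libraries of a group correlated at 0.994 to 0.994 (DMSO) and 0.992 to 0.994 (control siRNA) on the log2 scale, and libraries of different groups at 0.975 to 0.982. Whether replicates were separate cultures is not stated, and the p-values below reflect the spread between these libraries alone, whether biological or technical. Nucleofection, the siRNA, the time in culture, DMSO and the experiment itself differed together between the groups, and their parts cannot be told apart. The sympathetic markers HAND2, PHOX2A, GATA3 and ISL1 were present in all 6 libraries, with means of 13381 and 14375 for HAND2 (DMSO and control siRNA). XPO1 itself read 20106, 20611 and 20277 with DMSO, 17047, 17321 and 17112 with control siRNA, and 4075, 4244 and 4345 with XPO1 siRNA. The knockdown was thus seen in the libraries labelled for it. The small log2 difference of XPO1 between the controls, -0.24 (SE 0.0260, adjusted p = 1.95e-06), turned to 0.03 on the deposited scale.

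The controls differed across much of the transcriptome. Of 17411 genes with a mean of at least 10, 10440 passed the test (limma on log2(value + 1), two-sided, Benjamini-Hochberg adjusted p under 0.05), which is 60.0%. Of these, 3458 were higher with control siRNA (19.9% of genes tested) and 6982 were lower (40.1%). A log2 difference of 1 or more was seen in 444 of the higher genes (2.55% of those tested) and 783 of the lower (4.5%). The 3 libraries of one group all lay above the 3 of the other for 64.8% of genes. The median log2 difference of all genes was -0.12, and the balance of the directions rests on the scaling. With libraries scaled by the median of ratios the all-gene median was 0.00, with 5105 genes higher (29.4%) and 4879 lower (28.1%). On the deposited scale 7894 were higher (45.4%) and 2692 lower (15.5%). RN7SL1 and RN7SL2, RNAs of the signal recognition particle, took 9.41% to 9.72% of the total with DMSO and 12.6% to 13.1% with control siRNA, and with small RNA genes left out of the totals 4402 genes were higher and 5647 lower. The counts of gene groups are therefore to be read against these shares, 19.9% higher and 40.1% lower with equal totals. Counts under the median of ratios or on the deposited scale are given where they turn the balance and for some lists where they move it. On the deposited scale most lists moved towards higher.

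**Figure D1:**
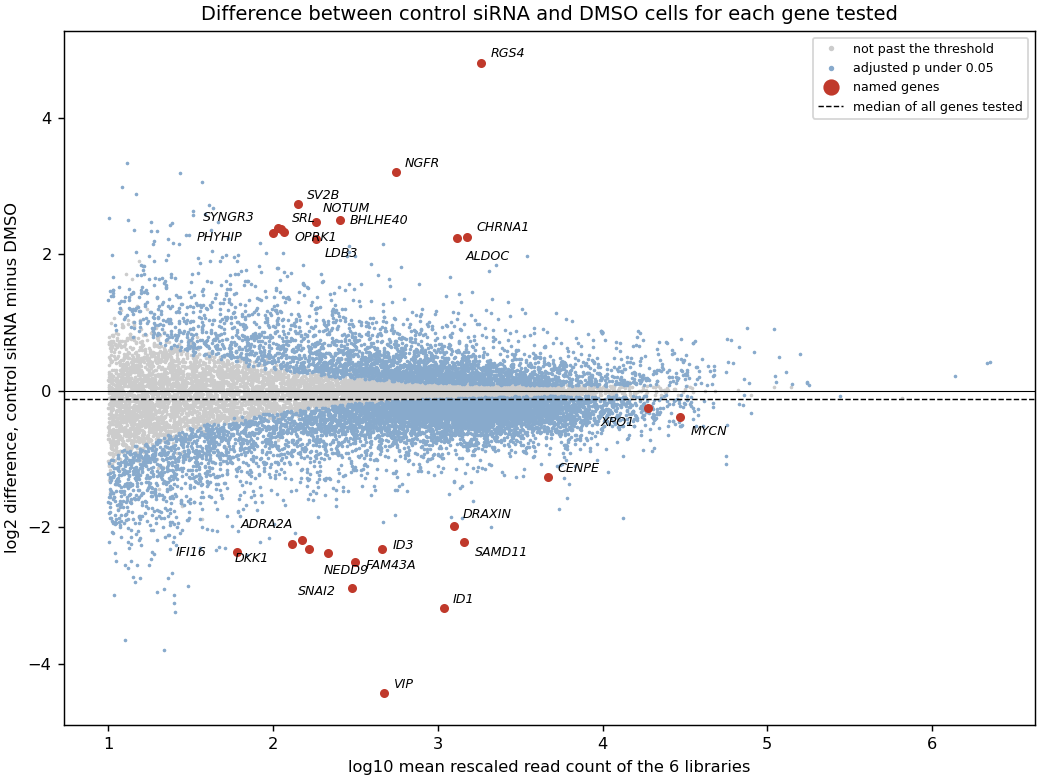
Log2 difference of control siRNA minus DMSO (y axis) against the log10 mean rescaled read count of the 6 libraries (x axis) for the 17411 genes tested, in blue where the adjusted p was under 0.05. The dashed line is the all-gene median of -0.12; RGS4 (4.81) and VIP (-4.43) lie farthest from it among the labelled genes.

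RGS4, which shortens signals from G protein-coupled receptors (hg19 chr1:163038565-163046593), read 89.9, 132 and 140 with DMSO and 2331, 5275 and 3029 with control siRNA. The lowest control siRNA library was far above the highest DMSO library, although the control siRNA libraries also spread widely among themselves. The means of 120 ± 26.8 and 3545 ± 1538 (SD, n = 3) gave a log2 difference of 4.81 (SE 0.222, adjusted p = 8.36e-10), or 28.0-fold on the log2(value + 1) scale. NGFR, a receptor for neurotrophins (chr17:47572655-47592380), read 95.7, 118 and 110 with DMSO and 1030, 1000 and 972 with control siRNA. Both groups were tight and well apart, with a log2 difference of 3.21 (SE 0.0848, adjusted p = 6.16e-12). CENPE, the kinesin that carries chromosomes to the spindle equator (chr4:104026963-104119567), went the other way. It read 6533, 6617 and 6678 with DMSO and 2306, 2942 and 3057 with control siRNA, a log2 difference of -1.27 (SE 0.0749, adjusted p = 7.49e-09), without overlap.

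These genes stood at other levels in the treated cells of the same tables. RGS4 read 330, 308 and 443 with selinexor and 2455, 1688 and 1921 with XPO1 siRNA. For NGFR the values were 785, 602 and 630 with selinexor and 956, 973 and 974 with XPO1 siRNA, close to the control siRNA libraries. CENPE read 2367, 2686 and 2855 with selinexor and 3627, 3698 and 3696 with XPO1 siRNA. Measured against its own control, NGFR thus differed by 2.62 on the log2 scale with selinexor and by -0.05 with XPO1 siRNA, and CENPE by -1.33 and 0.42. Those comparisons share their control libraries with the one described here.

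**Figure D2:**
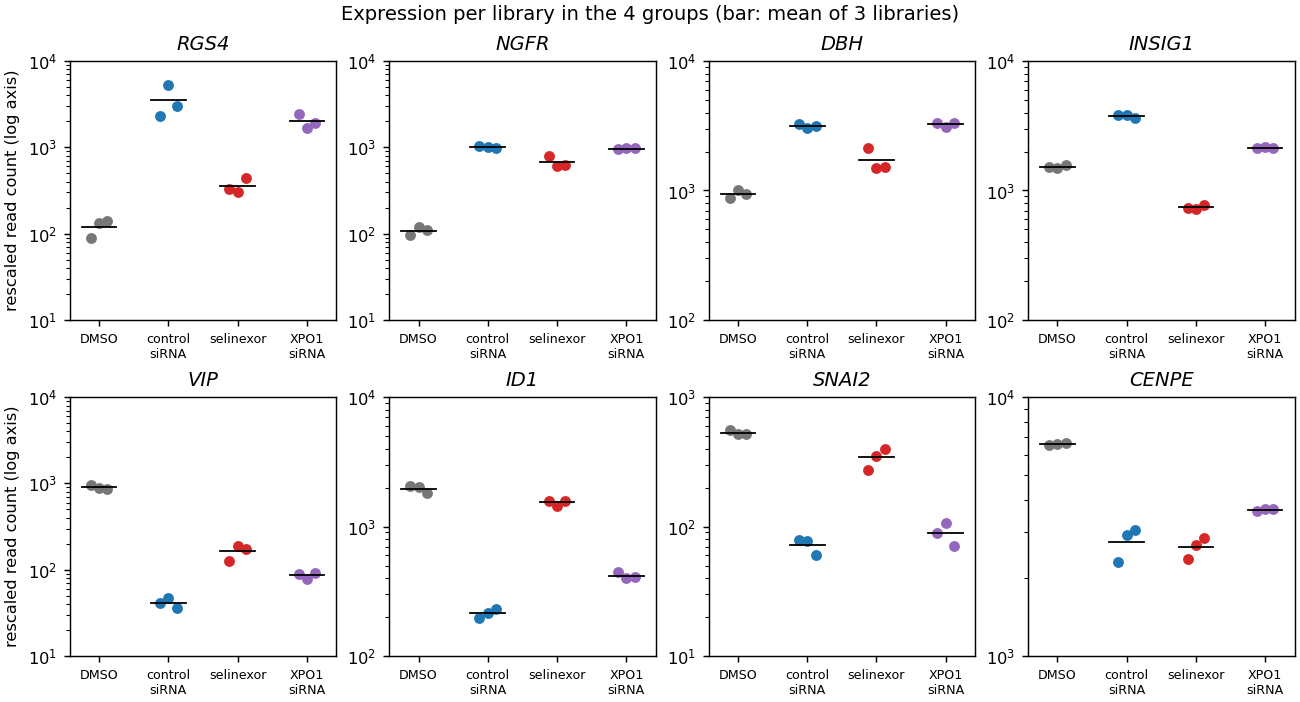
Rescaled read count of 8 genes (log axis) in each library of the 4 groups, with a bar at the mean of 3 libraries. RGS4, NGFR, DBH and INSIG1 were higher with control siRNA than with DMSO, and VIP, ID1, SNAI2 and CENPE were lower. No control siRNA library overlapped a DMSO library for any of the 8, as for 64.8% of all genes tested. The largest rises and falls among them had been taken from genes without overlap.

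Beyond RGS4 and NGFR, the 12 largest rises, among genes averaging 100 or more with control siRNA, were SV2B, BHLHE40, NOTUM, SYNGR3, SRL, OPRK1, PHYHIP, CHRNA1, ALDOC and LDB3, with log2 differences from 2.74 for SV2B to 2.23 for LDB3. SV2B and SYNGR3 encode proteins of synaptic vesicles, CHRNA1 the muscle-type subunit of the nicotinic acetylcholine receptor, and OPRK1 the kappa opioid receptor. NOTUM is a secreted enzyme that inactivates Wnt ligands, LDB3 and SRL are best known from muscle, and BHLHE40 is a transcriptional repressor of the circadian and hypoxic responses. CHRNA1 was the most tightly measured, at 510, 540 and 517 with DMSO and 2533, 2484 and 2481 with control siRNA (log2 difference 2.26, SE 0.0439, adjusted p = 7.7e-13). SV2B read 49.3, 30.8 and 30.9 against 242, 265 and 234. Libraries without overlap were a condition for entering this ranking, so their separation is no further result. Of all genes tested 64.8% met that condition in one direction or the other.

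VIP, which encodes vasoactive intestinal peptide, a neuropeptide of autonomic neurons (chr6:153071933-153080901), fell furthest among the named genes. It read 960, 880 and 862 with DMSO and 40.6, 46.6 and 35.7 with control siRNA, a log2 difference of -4.43 (SE 0.109, adjusted p = 3.16e-12) or 21.6-fold lower. With selinexor it read 126, 190 and 172, and with XPO1 siRNA 88.9, 77.6 and 91.8, so the DMSO libraries alone were high. Among the other 11 largest falls were ID1, SNAI2, FAM43A, NEDD9, IFI16, ID3, DKK1, SAMD11, ADRA2A and DRAXIN, from -3.19 for ID1 to -1.97 for DRAXIN. They include inhibitors of basic helix-loop-helix factors (ID1 and ID3), the neural crest repressor SNAI2, the secreted Wnt inhibitor DKK1, the alpha-2A adrenergic receptor ADRA2A and the DNA sensor IFI16. DRAXIN, a secreted axon guidance protein, read 1892, 2023 and 2045 with DMSO and 502, 507 and 504 with control siRNA. With XPO1 siRNA DRAXIN stood at 1789, 1792 and 1666, near the DMSO level.

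Because ID1, ID3 and SNAI2 were among these falls, genes of the BMP and TGF-beta pathway were listed after the values were seen, and their counts describe that choice. In this pathway secreted ligands bind paired serine/threonine kinase receptors, which phosphorylate SMAD proteins, and the SMADs switch on ID genes, SNAI genes and their own inhibitors SMAD6, SMAD7 and BAMBI. Of 14 ligands tested 7 were higher and 3 lower; INHBA, an activin subunit, had a log2 difference of 1.30 and TGFB1 0.64, while NODAL had -1.55. Of 14 receptors 4 were higher and 5 lower, among them BMPR1A at -0.34 and ACVRL1 at 1.53. Of 5 SMAD transducers 4 were lower, with SMAD1 at -0.63, and SMAD4 gave -0.02 without passing the test. The receptor and SMAD values rest on the scaling: under the median of ratios 5 receptors were higher and 4 lower, and 1 SMAD was higher and 3 lower.

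Target genes of the pathway lay lower with control siRNA. Of 18 tested, 16 were lower and none higher, with a median of -1.29 against -0.12 for all genes, and HES1 (-0.54) and SKI (-0.02) did not pass. ID1 and SNAI2, which helped to prompt the list, are counted in it, so its counts and median follow in part from that choice. ID1 (chr20:30193086-30194319) read 2059, 2021 and 1819 with DMSO and 198, 215 and 231 with control siRNA, a log2 difference of -3.19 (SE 0.0687). SNAI2 read 558, 520 and 522 against 79.3, 76.7 and 59.8. The groups were far apart in both. SMAD6 read 1026, 920 and 914 against 345, 344 and 344, SMAD7 had a log2 difference of -1.19, BAMBI of -1.39 and ID2 of -1.61. DLX3, a homeobox factor of ectoderm, gave -1.92, and TBX2, a T-box factor of the neuroblastoma core circuit, -1.57, from 9092 ± 306 to 3063 ± 148 (SD, n = 3). Of 11 extracellular antagonists CHRDL1 (0.90) and FST (1.26) were higher and 8 did not pass.

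Catecholamine synthesis and storage genes were mostly higher. Of 21 tested, 11 were higher and 4 lower (13 and 2 under the median of ratios), with a median of 0.30. DBH, which turns dopamine into noradrenaline (chr9:136501482-136524467), read 879, 1005 and 933 with DMSO and 3280, 3063 and 3143 with control siRNA, a log2 difference of 1.75 (SE 0.0497, adjusted p = 8.95e-12). GCH1, the first enzyme in making the cofactor of tyrosine hydroxylase, read 267, 262 and 259 against 946, 969 and 877 (1.82). The granins SCG2 (0.79) and VGF (0.84) and the amine oxidase MAOA (0.77) were higher. SLC6A2, the noradrenaline transporter, was lower at 145, 140 and 136 with control siRNA against 405, 395 and 365 with DMSO (-1.46), and the granin CHGA gave -0.38. DDC (-0.06) and the vesicle transporter SLC18A2 (0.05) did not pass the test.

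Adrenergic core transcription factors were split, with 9 of 29 higher and 12 lower (12 and 11 under the median of ratios, 16 and 6 on the deposited scale). PHOX2A, GATA3 and ISL1 did not pass, and HAND2 differed by 0.10. TLX2, a homeobox factor, fell by 0.91 on the log2 scale, whereas INSM1, a zinc finger factor of neuroendocrine differentiation, was higher by 0.79. MYCN read 33626, 33797 and 33091 with DMSO and 26075, 25454 and 25235 with control siRNA, a log2 difference of -0.39 (SE 0.0264, adjusted p = 2.47e-08) that stood at -0.11 on the deposited scale.

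Genes of the neuronal cytoskeleton and of differentiation were higher in 24 cases of 40 and lower in 12, with a median of 0.20. The tubulins TUBA1A (0.92), TUBB3 (0.66), TUBB2A (0.72) and TUBB2B (0.48) and the microtubule proteins MAPT (1.16) and MAP2 (0.40) were higher. TUBA1A went from 51687 ± 655 to 98083 ± 2316 (SD, n = 3), and as tubulins are close paralogs, reads may be shared between them. STMN2, a regulator of microtubule growth in neurons, read 7.73, 7.70 and 0.997 with DMSO and 47.4, 38.8 and 59.8 with control siRNA, few reads but without overlap. Other neuronal structural genes were lower: MAP1A fell by 0.85, the intermediate filaments PRPH by 0.61, NEFH by 0.48 and INA by 0.39, and the RNA-binding protein ELAVL4 by 0.43. NEFL, by contrast, was higher by 0.55.

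Synaptic vesicle genes, listed after SV2B and SYNGR3 were seen, were higher in 17 of 27 cases, SV2B included, and lower in 5. Of all genes tested 19.9% were higher and 40.1% lower. RAB3A, a GTPase of vesicle release, had a log2 difference of 1.19, SYT4 0.89 and SNAP91 0.79, and SYN2 had -0.79 and VAMP1 -1.05. Among 9 neuropeptides, also listed afterwards, VIP alone was lower and 5 were higher, among them PTHLH (1.12) and UCN (1.64), while PENK and ADCYAP1 did not pass. In neurotrophin and RET signalling, 7 of 18 genes were higher and 6 lower (9 and 3 under the median of ratios). NTRK3, the receptor of neurotrophin 3, gave 0.91, and GFRA2, a co-receptor of RET, -1.02. RET itself did not pass (0.01).

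Other RGS genes were higher in part. Of 15 tested, RGS4 included, 7 were higher and 2 lower (12 and none on the deposited scale), with a median of 0.24. RGS9 read 16.4, 12.5 and 5.98 with DMSO and 65.7, 91.2 and 68.6 with control siRNA (2.67), RGS10 gave 0.81 and RGS3 0.54. RGS2 (-0.13) and RGS12 (-0.23) were lower, and RGS5, a close relative of RGS4, did not pass at 0.13.

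Axon guidance and ephrin genes were higher in 23 of 48 cases and lower in 11. The lower ones included receptors of high level: UNC5B, a netrin receptor, read 8557, 8435 and 8062 with DMSO and 2651, 2318 and 2545 with control siRNA (-1.74), and UNC5C gave -1.13, the semaphorin co-receptor NRP1 -0.95 and the ligand SLIT3 -0.86. Among the higher genes were SLIT1 (89.9, 96.3 and 158 against 574, 416 and 397), EFNA1 (1.20), EPHA5 (1.17) and SEMA3C (1.27). Of 53 ion channel subunits 21 were higher and 15 lower (23 and 9 under the median of ratios). KCNK3, an acid-sensitive potassium channel, gave 1.13 and the calcium channel subunit CACNA2D2 1.20, against -1.46 for the G protein-gated channel KCNJ6 and -0.57 for CACNA2D1.

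Cholesterol and fatty acid synthesis genes were higher almost throughout. Of 32 tested, 29 were higher and 1 lower, with a median of 0.46 (30 higher and none lower under the median of ratios). These genes answer to SREBP factors, which are released from the endoplasmic reticulum when sterols are scarce. INSIG1, which holds SREBP back (chr7:155089486-155101946), read 1530, 1500 and 1560 with DMSO and 3843, 3826 and 3664 with control siRNA, a log2 difference of 1.30 (SE 0.0365, adjusted p = 8.95e-12). FDFT1, squalene synthase, read 3195, 3261 and 3271 against 7253, 7222 and 7022 (1.14). Both groups were tight and separate. Steps along the whole sterol pathway differed, with HMGCS1 at 0.71, FDPS at 0.72, SQLE at 0.37, MSMO1 at 1.10, DHCR7 at 0.76 and TM7SF2 at 1.69, and so did the factors SREBF1 (0.90) and SREBF2 (0.65). ACACA, the acetyl-CoA carboxylase, was the lower gene (-0.11), and ACLY and SC5D did not pass. The sterol regulatory element, searched as TCACNCCAC on both strands of 300 bases around the RefSeq start (250 before, 50 after), was found in 1 of 26 members with a promoter in the table and in 1.15% of all 27305 promoters.

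Glycolytic and hypoxia-response genes were higher in 28 of 36 cases and lower in 2, with a median of 0.35. These genes are switched on by HIF factors when oxygen is low. ALDOC, the brain form of aldolase (hg19 chr17:26900133-26904283), read 445, 426 and 483 with DMSO and 1804, 2573 and 2098 with control siRNA, a log2 difference of 2.24 (SE 0.0956, adjusted p = 4.24e-10). DDIT4, an inhibitor of mTOR signalling, read 1314, 1386 and 1450 against 4665, 6715 and 5173 (1.98). BNIP3, a mitophagy receptor, read 864, 863 and 844 against 1912, 2926 and 2288 (1.45), and ENO2, neuronal enolase, 1208, 1180 and 1194 against 2642, 2769 and 2746 (1.19). Control siRNA replicate 2 was the highest library for each of these 4 genes, most clearly for ALDOC, DDIT4 and BNIP3, and no library of the groups overlapped. PFKFB4 (1.64), PDK1 (0.96), EGLN3 (0.89), P4HA1 (0.71) and PGK1 (0.48) were higher too. Enzymes of the main glycolytic chain differed less: LDHA by 0.37, ENO1 by 0.35, GAPDH by 0.13 and PKM by -0.06, which did not pass. HIF1A itself was lower (-0.34), and VEGFA was higher by 0.36.

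The 250 bases before the start of ALDOC, DDIT4, BNIP3 and ENO2 are printed because these 4 had the largest differences among members holding the core letters of the hypoxia response element, ACGTG or its reverse complement CACGT. They are from RefSeq (GRCh38.p14), 5′ to 3′ in the direction of the gene, with these letters in capitals; CACGTG holds both in overlap. The regions are chr17:28576896-28577145 on the minus strand for ALDOC, chr10:72273674-72273923 on the plus strand for DDIT4, chr10:131981924-131982173 on the minus strand for BNIP3 and chr12:6914330-6914579 on the plus strand for ENO2.
ALDOC: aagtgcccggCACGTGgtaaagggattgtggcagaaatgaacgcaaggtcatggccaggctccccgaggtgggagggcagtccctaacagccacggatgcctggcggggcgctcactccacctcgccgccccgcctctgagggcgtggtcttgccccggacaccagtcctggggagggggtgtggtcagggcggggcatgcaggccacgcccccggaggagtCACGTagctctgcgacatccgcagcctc
DDIT4: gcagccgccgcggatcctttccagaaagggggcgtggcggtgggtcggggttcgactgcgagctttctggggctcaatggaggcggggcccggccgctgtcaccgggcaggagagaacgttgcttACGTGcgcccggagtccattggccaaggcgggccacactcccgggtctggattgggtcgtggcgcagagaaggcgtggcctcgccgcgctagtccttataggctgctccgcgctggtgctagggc
BNIP3: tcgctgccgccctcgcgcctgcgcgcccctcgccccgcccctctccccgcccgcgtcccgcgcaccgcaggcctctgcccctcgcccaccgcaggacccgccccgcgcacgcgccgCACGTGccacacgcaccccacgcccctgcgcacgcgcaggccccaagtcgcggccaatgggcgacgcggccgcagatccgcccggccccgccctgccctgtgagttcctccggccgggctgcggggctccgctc
ENO2: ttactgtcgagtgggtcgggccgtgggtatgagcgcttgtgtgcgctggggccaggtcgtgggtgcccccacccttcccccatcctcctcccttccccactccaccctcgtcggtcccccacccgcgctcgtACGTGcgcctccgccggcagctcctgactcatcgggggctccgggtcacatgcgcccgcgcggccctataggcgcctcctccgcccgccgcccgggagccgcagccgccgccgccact
Of 36 tested members, 32 had a promoter in the table and 13 of these (40.6%) held the letters within the 300 bases, against 21.6% of all 27305 promoters. A match of 5 letters is a description of the sequence and not a site.

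Cell cycle genes leaned lower, by less than CENPE, except on the deposited scale. Among all genes tested 40.1% were lower and 19.9% higher, with a median of -0.12. Relative to that median, the replication list below stood at -0.05, the mitosis list at -0.06 and the centromere list at -0.15. Of 54 genes of the G1/S transition and DNA replication 31 were lower and 8 higher (median -0.16), of 55 genes of G2/M and mitosis 41 were lower and 5 higher (median -0.18), and of 39 centromere and kinetochore genes 27 were lower and 2 higher (median -0.27). Under the median of ratios these counts became 23 lower and 17 higher, 19 lower and 11 higher, and 21 lower and 6 higher, and on the deposited scale 9 lower and 28 higher, 8 lower and 32 higher, and 10 lower and 14 higher. CENPF, a large kinetochore protein, read 76415, 72559 and 78354 with DMSO and 32048, 36858 and 39919 with control siRNA, a log2 difference of -1.07 (SE 0.0586) and the closest to CENPE in its list. MKI67 fell by 0.75 and ASPM by 0.65. CDK1 (0.00), CCNA2 (-0.03), CCNB2 (-0.03), MCM2 (-0.04) and PCNA (0.03) did not pass, and BIRC5, an inhibitor of cell death that acts at the centromere, was higher by 0.28. In bulk RNA, fewer cells in a phase and less RNA per cell cannot be told apart.

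With equal totals, replication-dependent histone genes went the other way from these lists, with 48 of 55 higher, none lower and a median of 0.51. On the deposited scale, where these lists leaned higher too, 51 histone genes were higher and none lower. HIST1H3H read 12088, 12469 and 11624 with DMSO and 22716, 21295 and 20952 with control siRNA (0.84). The linker histones HIST1H1C and HIST1H1E both gave values near this, 0.76 and 0.74. Histone copies share much of their sequence, so single copies are uncertain.

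Ribosome biogenesis and ribosomal protein genes were on opposite sides under each of these scalings. Of 52 MYC targets and ribosome biogenesis genes 42 were lower and 1 higher, with a median of -0.38 (28 lower and 12 higher on the deposited scale). UTP20, which processes the small-subunit precursor, read 7695, 7708 and 7629 with DMSO and 3476, 3637 and 3889 with control siRNA (-1.07). UBTF (-0.77) and POLR1A (-0.83), both of the RNA polymerase I apparatus, were lower. By contrast, 60 of 76 cytosolic ribosomal protein genes were higher and 2 lower, with a median of 0.20, and RPLP0 read 52566, 54510 and 52291 against 69686, 72447 and 69418 (0.41). Nuclear-encoded respiratory chain subunits were higher in 37 of 63 cases and lower in 5 (55 and 1 under the median of ratios), with COX8A at 0.39. Of 13 mitochondrially encoded genes 8 were lower and 1 higher (2 lower and 6 higher on the deposited scale), with MT-ND3 at 2195, 1961 and 1962 against 825, 971 and 872 (-1.20). MT-CO1 was lower by less (-0.27), a difference that turned on the deposited scale to 0.0064.

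Genes of the RNA interference machinery were mostly lower with control siRNA. The sensors of double-stranded RNA leaned lower where totals or the median of ratios set the scale, but not on the deposited scale. Of 15 genes of the RNA interference machinery 12 were lower and 2 higher, with a median of -0.44 (11 and 3 under the median of ratios, 8 and 3 on the deposited scale). With the length trend removed 9 were lower and 4 higher, and the median was -0.16 against -0.01 for all genes. DICER1, the nuclease that makes small RNAs, read 7312, 6885 and 7173 with DMSO and 4673, 4967 and 4906 with control siRNA (-0.55). The silencing complex genes AGO2 (-0.53), TNRC6A (-0.81) and TNRC6C (-0.85), the microRNA processing factor DGCR8 (-0.87) and the precursor exporter XPO5 (-0.44) were lower. Of 14 genes that sense double-stranded RNA 9 were lower and 2 higher (6 and 3 under the median of ratios, 3 and 6 on the deposited scale), with MAVS at -0.69 and ADAR at -0.38, and DDX58 did not pass. Relative to the all-gene median this list stood at -0.08, and with the length trend removed 6 were lower and 4 higher. Interferon-stimulated genes did not share one direction, with 6 of 25 higher and 10 lower (7 and 7 under the median of ratios, 10 and 6 on the deposited scale). ISG15 (1.70), IFI6 (0.88) and LGALS3BP (0.86) were higher and IFITM2 (-1.53), IFITM3 (-1.28) and IRF7 (-1.30) lower, while IFIT1 did not pass at 0.37.

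Stress programmes were mixed. NF-kB targets were higher in 4 of 9 cases and lower in 3, with TNFAIP2 at 2.02 and NFKBIA at -0.50. Immediate early genes, which answer within minutes to stimuli, were higher in 7 of 22 cases and lower in 5 (10 and 1 under the median of ratios), with ARC at 80.2, 74.1 and 74.8 against 213, 223 and 193 (1.44); FOS and EGR1 did not pass. p53 targets were higher in 9 of 30 cases and lower in 14, and ATF4 and unfolded protein response genes higher in 10 of 39 and lower in 16. Under the median of ratios these became 13 and 8, and 16 and 7. TRIB3 gave 1.30 and SLC7A11 -0.66, both ATF4 targets. Of 23 heat shock and chaperone genes 16 were lower and 2 higher (3 lower and 10 higher on the deposited scale), with HSPH1 at -0.58. Of 32 exportins and importins 23 were lower and 3 higher (9 lower and 14 higher on the deposited scale), with IPO4 at -0.69 and KPNB1 at -0.41. Relative to the all-gene median, the chaperone list stood at -0.09 and the exportin and importin list at -0.07, with 40.1% of all genes lower. Of 20 oxidative stress genes and targets of the factor NRF2 5 were higher and 9 lower (9 and 6 under the median of ratios, 15 and 3 on the deposited scale), with GCLM at -0.78, NQO1 at -0.82 and FTH1 at 0.33.

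Markers of other cell types were followed as sums. The 31 mesenchymal neuroblastoma genes in both tables summed to 44953 to 45363 with DMSO and 35702 to 37399 with control siRNA. Of 29 tested, 7 were higher and 13 lower (11 and 11 under the median of ratios, 13 and 10 on the deposited scale). VIM, FN1, ID1 and ID3 made up part of that sum, with FN1 at -0.76. For 6 fibroblast genes the sums were 6546 to 6656 and 5651 to 5849. Schwann and glial genes, 8 in both tables, summed to 3578 to 3749 and 4174 to 4424, NGFR among them, and of 7 tested 3 were higher and 3 lower. SOX10 and MBP had means of 17.0 and 16.2 with DMSO and of 6.14 and 4.35 with control siRNA, and FOXD3 and ERBB3 of 24.3 and 9.74 with DMSO and of 64.0 and 30.6 with control siRNA. Leukocyte and endothelial genes, of which 5 of 19 were in both tables, summed to 69.3 to 74.8 and 57.2 to 64.2. No marker in both tables was at 0 in all 6 libraries. Each library held reads for 18935 to 18967 of the 18987 shared genes, so this could hardly be otherwise and says little about other cells. The part of other cells in the results was not tested.

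The difference moved with transcript length. In 5 bins of equal gene number, the median log2 difference was 0.02 for the shortest genes (56 to 1833 bases) and -0.23 for the longest (5829 to 109224 bases), with the bins between in order. Of the genes in the longest bin 450 were higher and 1722 lower, and of those in the shortest 751 and 581. With each library's trend with length removed, 4315 of 14386 genes were higher (30.0%) and 4402 lower (30.6%). CENPE then gave -1.04, CENPF -0.80 and UTP20 -0.83, and NGFR (3.30), RGS4 (4.91), VIP (-4.44) and ID1 (-3.21) were close to their values above. KCNQ1OT1, a very long nuclear antisense RNA, went from -1.87 to -0.41, and as the use of strand in counting is not given, its reads cannot be told from those of its host gene. Of 8 nuclear-retained long RNAs 6 were lower and 2 higher (5 and 2 with the trend removed), MIAT among the lower ones at -1.34. The difference moved with GC content too. The median was -0.15 in the lowest of 5 GC bins (491 higher, 1426 lower) and 0.01 in the highest (895 and 880). With the GC trend removed 4471 of 14386 genes were higher and 4667 lower.

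**Figure D3:**
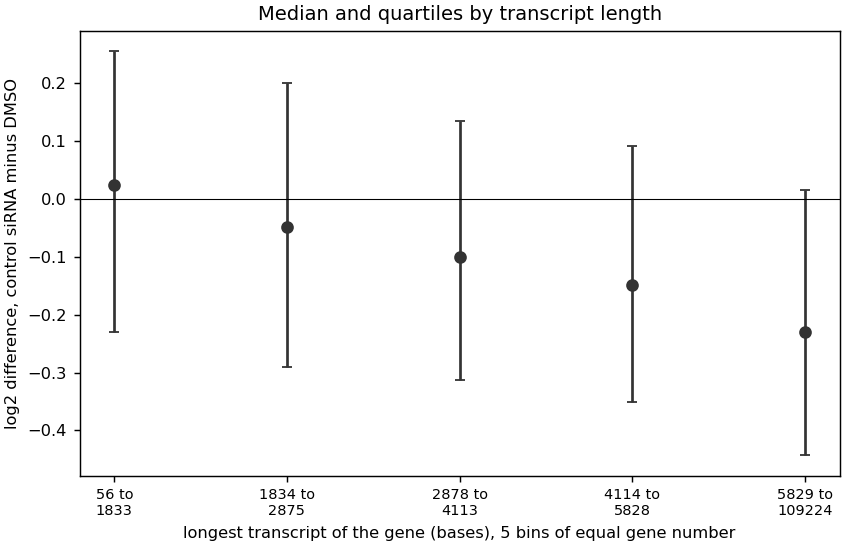
Median (point) and quartiles (bar) of the log2 difference, control siRNA minus DMSO, in 5 bins of genes by the length of their longest transcript. The medians run from 0.02 in the shortest bin to -0.23 in the longest.

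The treated libraries of the same 2 tables allowed a similar contrast with no library in common, XPO1 siRNA cells at 72 h against selinexor cells at 24 h. There, XPO1 was reduced or inhibited by different means and for different times, which cannot be told apart from the difference between the experiments. Of 18168 genes tested, 26.4% passed, 12.3% higher and 14.1% lower. Of 17212 genes tested in both contrasts, 58.7% had the same sign in both. The share was 62.0% of 10393 genes past the test between the controls. Of 434 genes higher by at least 1 with control siRNA 68.7% had the same sign, and of 756 lower by at least 1 93.1%.

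RGS4 differed by 2.49 on the log2 scale between XPO1 siRNA and selinexor, NGFR by 0.53, ID1 by -1.88 and SNAI2 by -1.93. Of the 12 largest rises all but PHYHIP (-0.09) and of the 12 largest falls each had the sign seen between the controls. Sterol synthesis genes were higher with XPO1 siRNA in 22 of 32 cases and lower in none, histones higher in 48 of 52, and the BMP target genes lower in 14 of 18 and higher in none. Cell cycle genes, which leaned lower between the controls with equal totals but not on the deposited scale, were mostly higher here: 50 of 54 genes of DNA replication, 52 of 55 of mitosis and 38 of 39 of the centromere were higher with XPO1 siRNA, none lower, and CENPE gave 0.48. Of 22 immediate early genes 12 were lower and 1 higher, ARC at -1.19. Each treatment also differed from its own control. The histone median was -2.39 with selinexor and -1.27 with XPO1 siRNA, the sterol synthesis median -0.69 and -0.48, and the BMP target median -0.19 and 0.41. For DNA replication these medians were -1.67 and -0.39, for mitosis -1.72 and -0.41, and for the centromere -1.51 and -0.26. What they contribute to the contrast of the treated libraries was not tested.

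**Figure D4:**
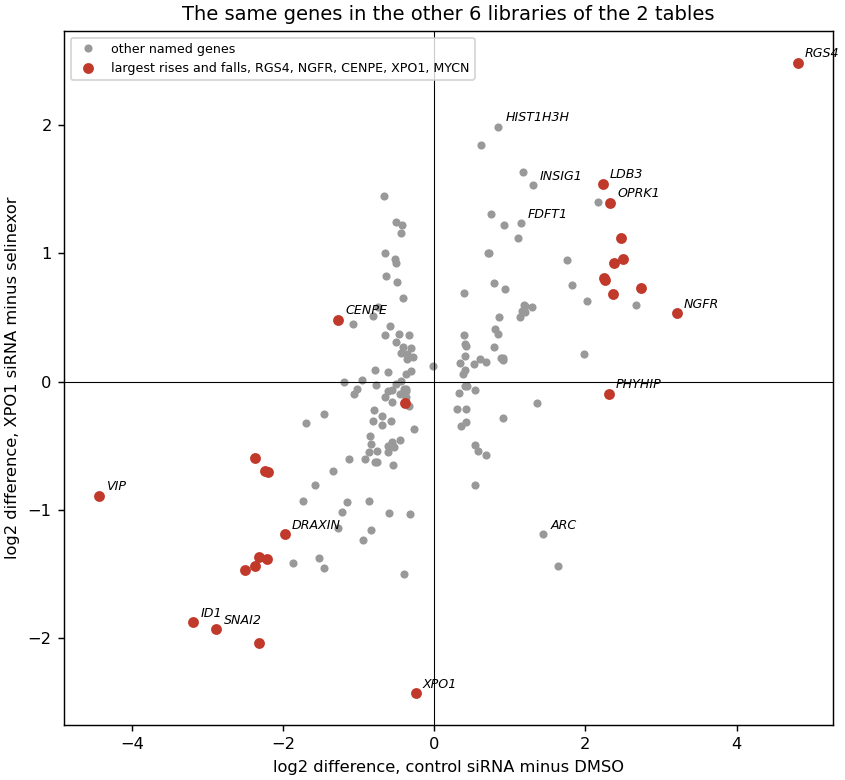
Log2 difference of XPO1 siRNA minus selinexor (y axis) against that of control siRNA minus DMSO (x axis) for 168 named genes, with the largest rises and falls, RGS4, NGFR, CENPE, XPO1 and MYCN in red. RGS4 and ID1 lie far out in opposite corners, while CENPE has opposite signs on the axes and XPO1, the target of the siRNA, the lowest value on the y axis.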

How the data were processed

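Values are the authors' deposited signal, that is normalized read counts: counts per gene over a size factor for each library. The submitters' processing notes name genome build hg19 and the tools STAR 2.7.3a, Partek and DESeq2, with no roles. Annotation, counting options and strand use: not given in the sources used here. Groups came from the sample titles. The knockdown table (19610 genes) held 3 further columns of per-sample values, left unused, and 25 symbols turned into dates, restored by coordinates. The selinexor table held 20029 genes. Dividing each library by its total over the 18987 shared genes cancels the size factors. Genes with a mean of 10 or more over the 6 libraries were tested in R 4.3.3 with limma 3.58.1 (lmFit, then eBayes with its intensity trend) after adding 1 and taking log2, with group as the only term. Fold changes on this scale understate those of low genes. Of low values (0.3 to 50, a range whose upper end was set after the data were seen), 62.4% to 67.3% were whole multiples of a step within 0.02, so whole reads were not recovered and no count model was fitted. Depths are estimates from these steps.

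Members and gene lists were chosen with earlier results of these data known, and 8 lists (5 of BMP and TGF-beta parts, neuropeptides, synaptic vesicles, imprinted genes) after the values of this comparison were seen. Named were XPO1, MYCN, RGS4, NGFR and CENPE; the 12 largest rises and 12 largest falls past the threshold, without overlap, averaging 100 or more in the higher group and with no clone, locus or small RNA name; and, per list, up to 4 members past the threshold by smallest p, or 2 where none passed. Other list members named were chosen after their values were seen. Some genes that the rule names are not reported here. Length and GC content came from GENCODE 29 by symbol for 82.6% of genes tested, and promoters from RefSeq. The steps were tested on simulated data. Alternatives were the scaling, pseudocount, filter, each replicate left out, all 12 libraries, a replicate block, no trend, and GC or length trends removed. Python 3.11.15 with pandas 2.3.3, numpy 2.4.6 and matplotlib 3.10.9 made the tables and figures.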

Additional observations from a re-analysis of the deposited data

How the results depend on the processing

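On the deposited scale 7894 genes were higher and 2692 lower in place of 3458 and 6982, and with the length trend removed 4402 were lower. A minimum log2 difference of 1 left 444 higher and 783 lower. Leaving out each replicate gave 3079 to 3244 higher and 6305 to 6807 lower genes. A replicate block gave 3435 and 6925; same-numbered libraries did not deviate together (correlations of -0.042, -0.060 and 0.033, so not every library was closest to its own number), and the numbers were not taken as pairs. A fit of all 12 libraries gave 2374 and 5202. The same-sign share of genes past the test was 61.0% under the median of ratios and 63.5% without selinexor replicate 1. Of 168 named genes, 5 changed sign: XPO1 (0.0335) and MT-CO1 (0.0064) on the deposited scale, and MDM2 (0.0135) and NDUFS1 (0.0077) with the length trend removed, and CDH5, which did not pass the test in any fit (-0.015), at 0.254 on the deposited scale, 0.100 under the median of ratios, 0.0996 with the trimmed mean of log ratios, 0.0568 with small RNA genes left out of the totals, 0.0681 and 0.0999 with the GC or length trend removed, and -0.0656 to 0.0249 with a replicate left out (0.0249, 0.0166 and 0.0039 where it turned); the causes were not tested. Over 3177 pairs of a named gene and an alternative, 3148 kept direction and side of the threshold, 13 changed sign, 16 kept direction only, and none of the 16 came from leaving out a replicate.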

Other observations

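Imprinted genes, expressed from one parental copy, were listed after their values were seen. Of 20 tested, 9 were higher with control siRNA and 8 lower (9 and 6 under the median of ratios, 12 and 2 on the deposited scale). DLK1 and MEG3, which lie in the same cluster on chromosome 14, were both higher. DLK1 is a Notch-related surface protein of chromaffin and neuroblastoma cells. It read 171, 172 and 167 with DMSO and 760, 799 and 718 with control siRNA (log2 difference 2.15, SE 0.0707). MEG3 read 58.0, 45.2 and 66.8 against 141, 227 and 187 (1.68). With selinexor DLK1 read 745, 370 and 502 and with XPO1 siRNA 1242, 1083 and 1153, so the DMSO libraries were the low ones. CDKN1C, the cell cycle inhibitor p57, read 174, 162 and 178 against 585, 493 and 462 (1.57), while H19 (-0.45) and GRB10 (-0.37) were lower and SNRPN did not pass.

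Circadian clock genes other than BHLHE40 differed by less. PER2 fell by 0.55 and CLOCK by 0.45, and of 14 genes, BHLHE40 included, 4 were higher and 3 lower.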
